A study of Mus musculus with 8 samples.

Results

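Interferon gamma RNA (Ifng), the RNA of a chain of its receptor (Ifngr1) and that of 6 genes known as its targets (Irf1, Irgm2, Gbp2b, Gbp5, Socs1 and Ido1) were followed in mouse oral tumours injected with the chemokine CXCL10 or with vehicle. The 8 genes were taken by symbol, had a row each in the deposited values, and were 8 of 693 measured genes. The tumours had been grown in the cheek (buccal space) of C57BL/6N females, 4 to 6 weeks old, from the 4MOSC1 line of mouse oral squamous carcinoma, and were taken whole. Dosing began around day 3, at a mean tumour volume of 10 to 20 mm3, and was repeated on days 6 and 9. The CXCL10 group (4 tumours) received 10 µg of chemokine in 50 µl of PBS, and the vehicle group (4 tumours) received 50 µl of PBS. No genetic change or other agent is named for either group. Sample titles give day 10 as the day of collection for all 8 tumours, while the source labels count on from day 10 to day 17, with every CXCL10 tumour later than every vehicle tumour. If those labels held, day and treatment could not be told apart.

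Interferon gamma is made mainly by activated T cells and NK cells. It binds a receptor of IFNGR1 and IFNGR2 chains, which signals through the kinases JAK1 and JAK2. Promoters of many target genes hold gamma-activated sites (GAS), and IRF1, itself an early target, binds interferon-stimulated response elements (ISRE) in further genes. In tumours the pathway is known for raising antigen presentation and T cell chemokines, and also for inducing brakes such as SOCS1 and IDO1.

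Promoters are shown because these sites are where the pathway is known to act, and because some of the genes varied together between tumours. RefSeq promoter windows of 300 bases (250 before and 50 after a transcript start, build GRCm38.p6) were matched by symbol for 7 of the 8 genes, and for Ido1 none was matched. Both strands were searched for the GAS letters TTCNNNGAA, which read the same on either strand, and for an ISRE core of GAAA, any 2 bases and GAAA. The stretches below run from 30 bases before the first match to 30 bases after the last, or to the window's edge, with matches in capitals and each sequence read 5′ to 3′ along the gene's strand.
Irf1, chr11:53769894-53769962, plus strand: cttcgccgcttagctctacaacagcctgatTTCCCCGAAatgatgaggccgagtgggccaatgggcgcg
Irgm2, chr11:58214872-58214952, plus strand: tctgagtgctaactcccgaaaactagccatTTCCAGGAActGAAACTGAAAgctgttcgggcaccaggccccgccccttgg
Gbp5, chr3:142496684-142496920, plus strand: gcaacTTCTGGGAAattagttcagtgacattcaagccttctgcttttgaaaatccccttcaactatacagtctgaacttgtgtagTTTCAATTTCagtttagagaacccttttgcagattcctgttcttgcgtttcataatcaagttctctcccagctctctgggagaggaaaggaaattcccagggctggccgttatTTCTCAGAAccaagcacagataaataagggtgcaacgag
Gbp2b, chr3:142594680-142594749, plus strand: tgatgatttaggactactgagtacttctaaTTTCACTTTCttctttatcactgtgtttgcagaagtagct
Socs1, chr16:10785574-10785649, minus strand: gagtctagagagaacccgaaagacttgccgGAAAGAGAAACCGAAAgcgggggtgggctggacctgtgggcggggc
The Irf1 match was a GAS 90 to 82 bases before the transcript start. Irgm2 held a GAS 75 to 67 bases before it and an ISRE core 64 to 55 bases before it. In Gbp5 GAS matches lay 245 to 237 and 52 to 44 bases before the start, with an ISRE core on the reverse strand between them. The Gbp2b match, an ISRE core on the reverse strand, lay 137 to 128 bases before the start. Socs1 held 2 ISRE cores that overlap each other, and the capitals run through both. The Ifng window had 1 GAS match, 249 to 241 bases before the start, and that of Ifngr1 had no match to either motif. A GAS was present in 4 of the 8 windows of these genes (Irf1 has 2 windows), against 8.30% of all 32851 windows and 11.6% of the 630 windows of panel genes. An ISRE core was likewise present in 4 of the 8, against 3.44% and 7.46%. The matches are letters in a window and were not tested for binding.

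Levels are log2 of the authors' normalized probe counts, and differences are CXCL10 minus vehicle on that scale. Whole probe counts recovered from the values, before scaling, summed to 973697 to 1021358 per vehicle tumour and 1028938 to 1167694 per CXCL10 tumour. Every CXCL10 tumour thus had a higher total than every vehicle tumour, and CXCL10 tumour 4 had the highest. The part of this in the differences below was not tested. The carcinoma markers Epcam, Cdh1, Egfr and Cd44 had summed linear levels of 7908 to 9218 in vehicle and 8723 to 10800 in CXCL10 tumours. They were above 0 in all 8 tumours, but so was every measured gene, so this sets no marker apart. Over the panel, 482 of 693 genes (69.6%) had a higher mean after CXCL10 and the median difference was 0.13. The median became 0.021 with median-of-ratios scaling, 0.047 when each tumour was centred on the panel median, and 0.012 after quantile normalization. A difference of about 0.13 is therefore the middle of this panel. The titles only number the tumours, and separate mice are not stated, so a p-value here reflects spread among 8 samples that may in part be technical.

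None of the 8 genes passed the test between groups, although all 8 had a higher mean in CXCL10 tumours on the authors' scaling (Ifngr1 went below 0 on 2 of the 3 other scalings). Limma with Benjamini-Hochberg adjustment over all 693 genes called 0 of the 8, against 0.289% of the panel (2 genes, Cd96 and Il18r1). Irgm2, Ifng and Gbp5 had an unadjusted limma p under 0.05 on the higher side, 3 of 8, against 15.0% of the panel, and 0 of 8 on the lower side, against 4.04%. The groups did not overlap for 1 of the 8, Irgm2, which was higher, against 7.79% of the panel, and for 0 of 8 on the lower side, against 3.03%. The median difference of the 8 was 0.46, against the panel's 0.13, and it ranged from 0.36 to 0.56 with any 1 tumour left out.

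Ifng (Entrez 15978), the cytokine itself, had log2 levels of 6.02, 5.45, 5.31 and 5.65 in vehicle tumours 1 to 4 and 5.74, 6.44, 5.94 and 6.39 in CXCL10 tumours 1 to 4. CXCL10 tumours 2 and 4 were the highest of the 8, vehicle tumour 1 lay above CXCL10 tumours 1 and 3, and the groups overlapped. Group means were 5.61 ± 0.31 and 6.13 ± 0.34 (SD, n = 4 each), a 1.43-fold difference (log2 0.52, SE 0.20, 95% interval 0.065 to 0.97, limma adjusted p = 0.214). With quantile normalization the log2 difference was 0.33. Counts behind these levels were small, 40 to 64 per vehicle tumour and 58 to 86 per CXCL10 tumour. They summed to 194 (exact Poisson 95% interval 167.7 to 223.3) and 290 (257.6 to 325.4), intervals that cover counting error only. Counting alone gives an error of about 0.21 per vehicle tumour and 0.17 per CXCL10 tumour on the log2 scale, against SDs of 0.31 and 0.34.

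Ifngr1 (Entrez 15979), the ligand-binding receptor chain, had log2 levels of 11.78, 11.80, 11.64 and 11.85 in vehicle tumours 1 to 4 and 11.57, 11.99, 11.82 and 12.09 in CXCL10 tumours 1 to 4. CXCL10 tumour 4 was the highest and CXCL10 tumour 1 the lowest of all 8, so the treated group enclosed the vehicle group. The difference was 0.10 (SE 0.14, 95% interval -0.20 to 0.41, limma adjusted p = 0.699), below the panel median. It was -0.042 after quantile normalization, -0.0018 with median-of-ratios scaling and 0.024 when centred on the panel median, and 0.029 (without CXCL10 tumour 4) to 0.20 (without CXCL10 tumour 1) with 1 tumour left out.

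Irf1 (Entrez 16362), the transcription factor that carries the response to secondary targets, had log2 levels of 12.41, 12.47, 12.23 and 12.13 in vehicle tumours 1 to 4 and 12.35, 12.50, 12.64 and 12.85 in CXCL10 tumours 1 to 4. CXCL10 tumours 2, 3 and 4 lay above every vehicle tumour, and CXCL10 tumour 1 lay below vehicle tumours 1 and 2. The means of 12.31 ± 0.16 and 12.59 ± 0.21 (SD, n = 4 each) differed by 0.28 (SE 0.14, limma adjusted p = 0.316), and by 0.17 to 0.20 with the 3 other scalings.

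**Figure D1:**
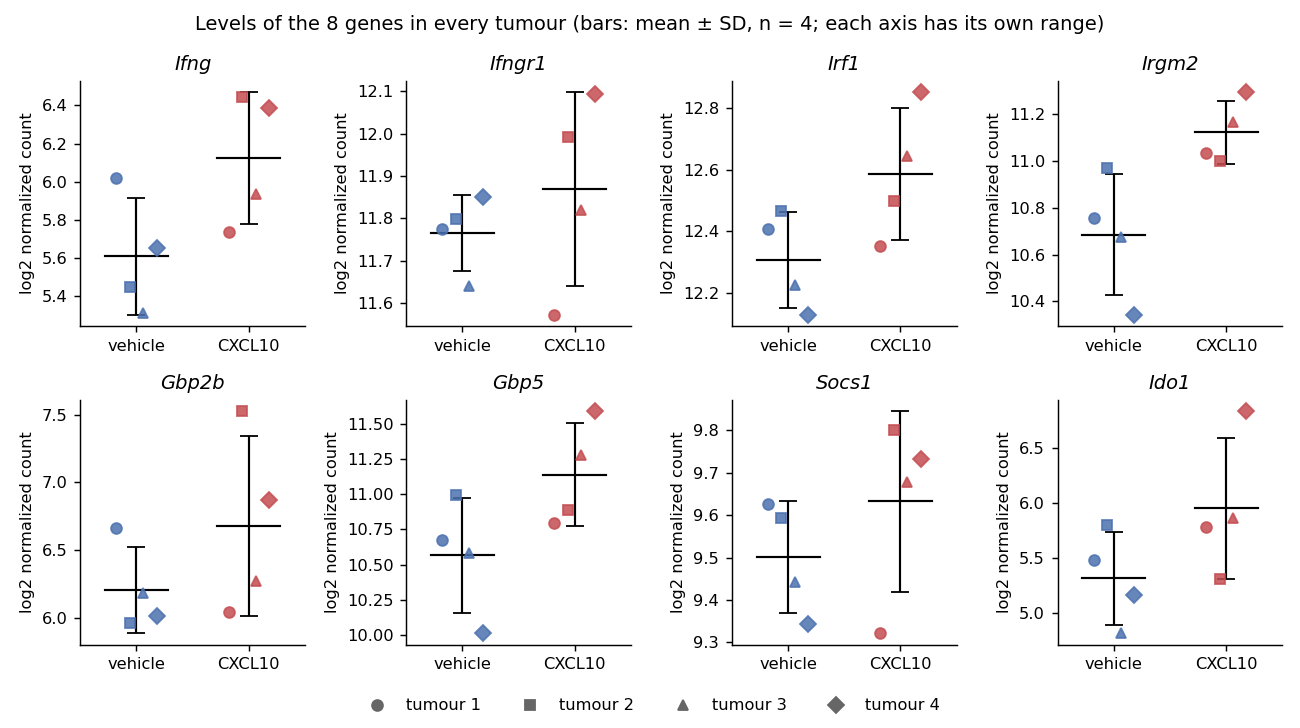
Log2 normalized probe counts of the 8 genes, 1 panel a gene with its own axis range; points are the 4 vehicle (blue) and 4 CXCL10 (red) tumours with a symbol for each tumour number, and bars are mean ± SD. Only Irgm2 shows no overlap, with every CXCL10 tumour at 11.00 or above and every vehicle tumour at 10.97 or below.

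The GTPase genes followed. Irgm2 (Entrez 54396), an immunity-related GTPase that acts on membranes around intracellular pathogens, had log2 levels of 10.76, 10.97, 10.68 and 10.34 in vehicle tumours 1 to 4 and 11.03, 11.00, 11.17 and 11.30 in CXCL10 tumours 1 to 4. All 4 CXCL10 tumours lay above all 4 vehicle tumours, with vehicle tumour 2 and CXCL10 tumour 2 the nearest to each other. The means were 10.69 ± 0.26 and 11.12 ± 0.13 (SD, n = 4 each), a 1.35-fold difference (log2 0.44, SE 0.15, 95% interval 0.11 to 0.77, limma adjusted p = 0.185).

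Gbp5 (Entrez 229898), a guanylate-binding protein gene tied to inflammasome activation, had log2 levels of 10.67, 11.00, 10.58 and 10.01 in vehicle tumours 1 to 4 and 10.80, 10.89, 11.28 and 11.60 in CXCL10 tumours 1 to 4. CXCL10 tumours 3 and 4 stood above the rest, vehicle tumour 4 stood below the rest, and vehicle tumour 2 lay above CXCL10 tumours 1 and 2. The means of 10.56 ± 0.41 and 11.14 ± 0.37 (SD, n = 4 each) gave a 1.49-fold difference (log2 0.58, SE 0.23, limma adjusted p = 0.223).

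Gbp2b (Entrez 14468), formerly Gbp1 and another guanylate-binding protein gene, had log2 levels of 6.66, 5.96, 6.19 and 6.02 in vehicle tumours 1 to 4 and 6.05, 7.53, 6.27 and 6.87 in CXCL10 tumours 1 to 4. CXCL10 tumour 2 was far above the others, and CXCL10 tumours 1 and 3 lay within the vehicle range. The difference was 0.47 (SE 0.30, limma adjusted p = 0.415) and became 0.19 without CXCL10 tumour 2 and 0.31 with quantile normalization. Counts were 57 to 100 in vehicle and 72 to 172 in CXCL10 tumours. None of the 10 other listed GTPase genes had a row under its listed symbol among the measured genes, so they could not be analysed. Guanylate-binding protein genes resemble each other in sequence, and cross-reaction between their probes was not assessed.

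The inhibitory targets differed in size. Socs1 (Entrez 12703), which blocks JAK kinases and so limits the response, had log2 levels of 9.63, 9.59, 9.44 and 9.34 in vehicle tumours 1 to 4 and 9.32, 9.80, 9.68 and 9.73 in CXCL10 tumours 1 to 4. CXCL10 tumours 2, 3 and 4 were the highest of the 8 and CXCL10 tumour 1 was the lowest. The difference was 0.13 (SE 0.14, 95% interval -0.17 to 0.44, limma adjusted p = 0.620), equal to the panel median at this rounding. It was 0.015 to 0.051 with the 3 other scalings, 0.075 without CXCL10 tumour 2, 0.078 without vehicle tumour 4 and 0.23 without CXCL10 tumour 1.

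Ido1 (Entrez 15930), an enzyme that degrades tryptophan and restrains T cells, had log2 levels of 5.48, 5.80, 4.82 and 5.17 in vehicle tumours 1 to 4 and 5.79, 5.31, 5.87 and 6.84 in CXCL10 tumours 1 to 4. CXCL10 tumour 4 stood above the rest, vehicle tumour 2 lay above CXCL10 tumours 1 and 2, and the groups overlapped. The means of 5.32 ± 0.42 and 5.95 ± 0.64 (SD, n = 4 each) gave a 1.55-fold difference (log2 0.64, SE 0.31, limma adjusted p = 0.302), the widest of the 8 and also the one with the largest SE. Without CXCL10 tumour 4 it was 0.34. Counts were 29 to 51 in vehicle and 37 to 118 in CXCL10 tumours.

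Ranked by difference among all panel genes, Ido1, Gbp5, Ifng and Gbp2b lay above 96.7%, 95.2%, 93.8% and 91.5% of genes, and Irgm2 above 89.5%. Irf1 lay above 75.3%, while Socs1 and Ifngr1, above 50.4% and 46.0%, sat in the middle of the panel.

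**Figure D2:**
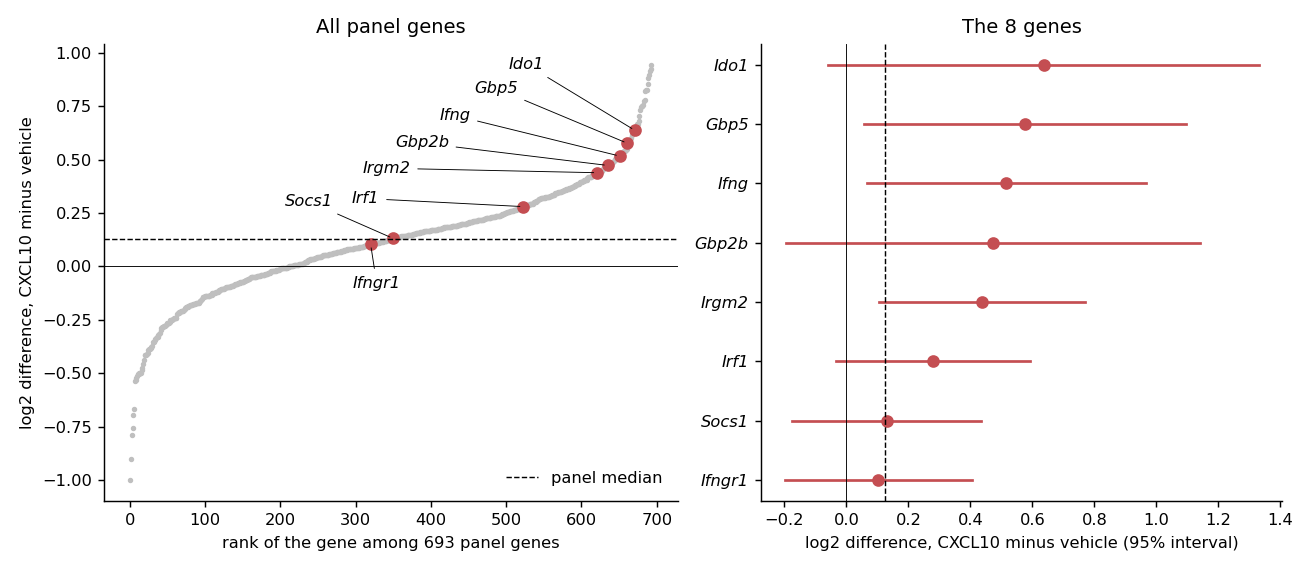
Left, log2 differences (CXCL10 minus vehicle) of 693 panel genes against their rank, with the 8 genes in red and the panel median of 0.13 dashed. Right, the 8 differences with limma's 95% intervals; those of Irgm2, Ifng and Gbp5 lie above 0 before adjustment, and none of the 8 passed after it.

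Correlation over the 8 tumours asked how far each target followed Ifng. Pearson's r with Ifng was above 0 for all 7 genes and differed widely between them. In exact permutation tests over all 40320 orders of the tumours, adjusted over 692 genes, 0 of the 7 passed, as did 0.0% of the panel, and the same count of 0 held for Spearman's rho. Unadjusted, 3 of the 7 had a p under 0.05 (Gbp2b, Ifngr1 and Socs1), against 16.6% of panel genes with a positive r. The panel as a whole leaned the same way, with a median r of 0.38. Because a difference between groups adds to such an r, the value within groups (each group centred on its mean) is given beside it. There, over 576 orders, 1 of the 7 had an unadjusted exact p under 0.05 (Gbp2b), against 9.68% of the panel, and none passed after adjustment (0.0% of the panel). With 576 orders a single gene could not pass an adjustment over 692 genes, however closely it followed Ifng. The adjusted count within groups therefore decides nothing. Each group alone holds 4 tumours, too few for an r of its own. The 2 tumours farthest from the median Ifng level were CXCL10 tumours 2 and 4.

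Gbp2b followed Ifng most closely, with r = 0.87 and rho = 0.86 (exact permutation p = 0.00191 and 0.0107, adjusted p = 0.150 and 0.275). Its r was 0.85 within groups (exact p = 0.0260, adjusted p = 0.429) and 0.66 without those 2 tumours. It exceeded the r of 97.0% of panel genes. The 4 CXCL10 tumours had the same order for both genes, and vehicle tumour 1 was the highest vehicle tumour for each, while the other vehicle tumours were close together and in another order.

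Ifngr1 had r = 0.76 and rho = 0.60 with Ifng (exact permutation p = 0.0269 and 0.132, adjusted p = 0.243 and 0.523), and 0.77 within groups. Socs1 had r = 0.73 and rho = 0.76 (exact permutation p = 0.0445 and 0.0368, adjusted p = 0.280 and 0.339), and 0.69 within groups. Without the 2 farthest tumours, which narrows the range of Ifng, r was 0.29 for Ifngr1 and 0.40 for Socs1. With any 1 tumour left out r was 0.65 to 0.85 for Ifngr1 and 0.62 to 0.83 for Socs1. With the 3 other scalings r was 0.47 to 0.54 for Ifngr1 and 0.41 to 0.48 for Socs1, against 0.81 to 0.82 for Gbp2b.

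Irf1, Irgm2, Gbp5 and Ido1 had a lower r with Ifng, and for each the value within groups was below that over all 8 tumours. Irf1 had r = 0.68 and rho = 0.67 (exact permutation p = 0.0653 and 0.0831, adjusted p = 0.337 and 0.464), with 0.42 within groups and 0.48 without the 2 farthest tumours. Irgm2 had r = 0.53 and rho = 0.57 (exact permutation p = 0.179 and 0.151, adjusted p = 0.527 and 0.539), with 0.0099 within groups and 0.27 without those tumours. For Gbp5 r was 0.51 and rho 0.48 (exact permutation p = 0.199 and 0.243, adjusted p = 0.531 and 0.635), with 0.12 within groups and 0.24 without them. For Ido1 r was 0.52 and rho 0.38 (exact permutation p = 0.190 and 0.360, adjusted p = 0.531 and 0.701), with 0.23 within groups and 0.51 without them. Within groups the median over the panel was 0.34, so Irgm2, Gbp5 and Ido1 lay below the middle of the panel. With the 3 other scalings the value within groups was 0.034 to 0.17 for Irf1 and 0.038 to 0.092 for Ido1, and turned negative for Irgm2 (-0.36 to -0.22) and Gbp5 (-0.15 to -0.016). Whether the r of one target differs from that of another was not tested.

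**Figure D3:**
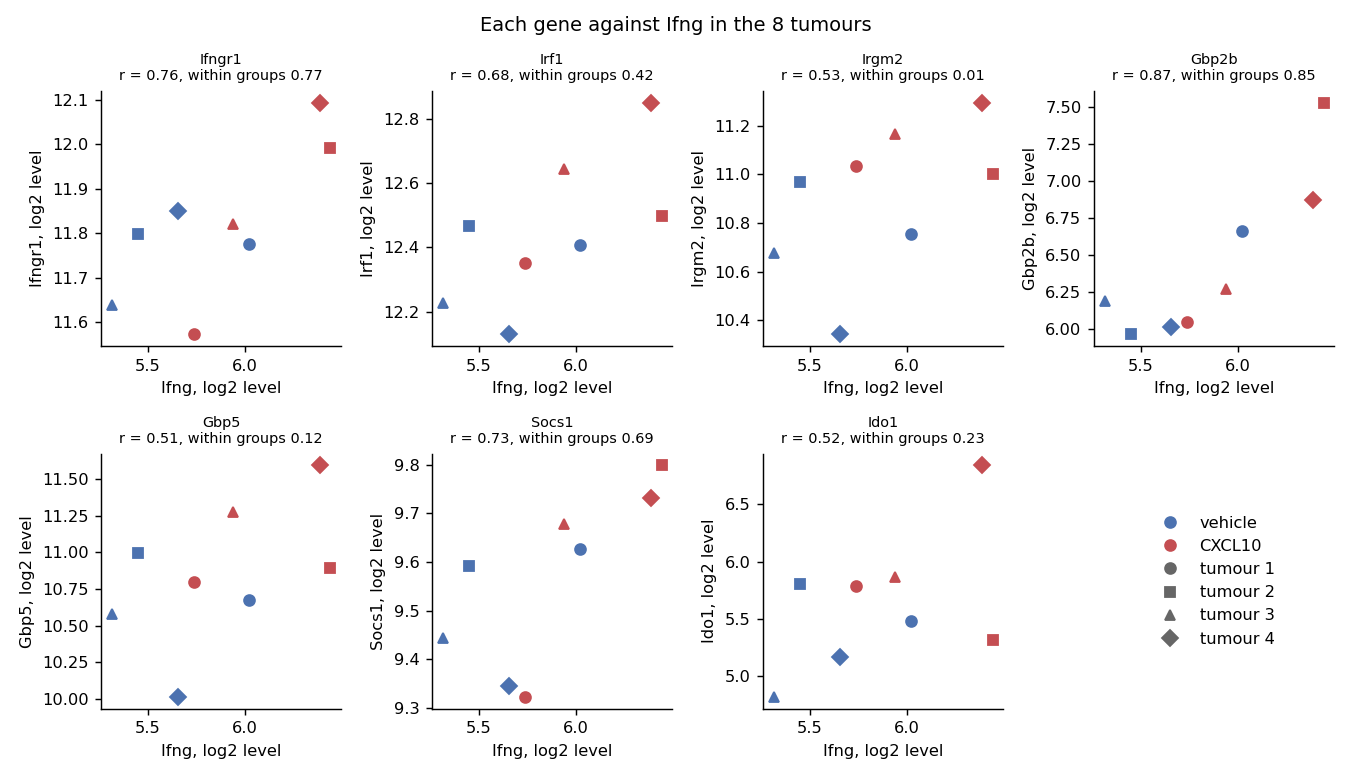
Log2 level of each of the 7 other genes (vertical) against that of Ifng (horizontal) in 4 vehicle (blue) and 4 CXCL10 (red) tumours, with Pearson's r over 8 tumours and within groups above each panel. The CXCL10 tumours keep 1 order for Gbp2b and Ifng (r = 0.87 over 8 tumours), while Irgm2 and Gbp5 lie at different heights in CXCL10 tumours 2 and 4, which have similar Ifng.

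Among themselves the targets gathered in another way. Over the 28 pairs of the 8 genes, p was adjusted over all 5508 pairs of one of them with any panel gene, and none passed. With 40320 orders, a single pair could not pass that adjustment by itself, however high its r. Irgm2 and Gbp5 had r = 0.97 and rho = 0.90 (exact permutation p = 0.000223 and 0.00456, adjusted p = 0.0948 and 0.169) and r = 0.96 within groups. Irf1 and Gbp5 had r = 0.96 and rho = 0.95 (exact permutation p = 0.000471 and 0.00114, adjusted p = 0.0948 and 0.131) and r = 0.93 within groups. Irf1 with Irgm2 stood at 0.91 (0.83 within groups) and Irf1 with Ido1 at 0.87 (0.80 within groups). By tumour order, CXCL10 tumours 4 and 3 were first and second for 1 set, Irf1, Irgm2, Gbp5 and Ido1. For the other set, Ifng and Gbp2b, CXCL10 tumours 2 and 4 were first and second. That order was not particular to Ifng and Gbp2b, since Socs1 had it too and Ifngr1 had the same tumours as 4 and 2. The 4 lowest pairs within groups each joined a gene of the one set with a gene of the other, namely Gbp2b with Ido1 (-0.14), Gbp2b with Irgm2 (-0.0081), Ifng with Irgm2 (0.0099) and Gbp2b with Gbp5 (0.067). With the 3 other scalings Irgm2 and Gbp5 kept an r of 0.91 to 0.94 and Irf1 and Gbp5 one of 0.86 to 0.96. After quantile normalization Irf1 with Irgm2 fell to 0.69 (0.55 within groups) and Irgm2 with Ido1 to 0.63 (0.47 within groups). Under that scaling Irf1 with Ido1 stood at 0.91 and Gbp5 with Ido1 at 0.77. These 2 sets were seen in the values and were not fixed beforehand, and Socs1 and Ifngr1 were placed in neither. Socs1 had an r of 0.77 with Irf1 and 0.78 with Gbp2b, near the 0.78 of Irgm2 with Ido1, but 0.41 with Ido1.

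**Figure D4:**
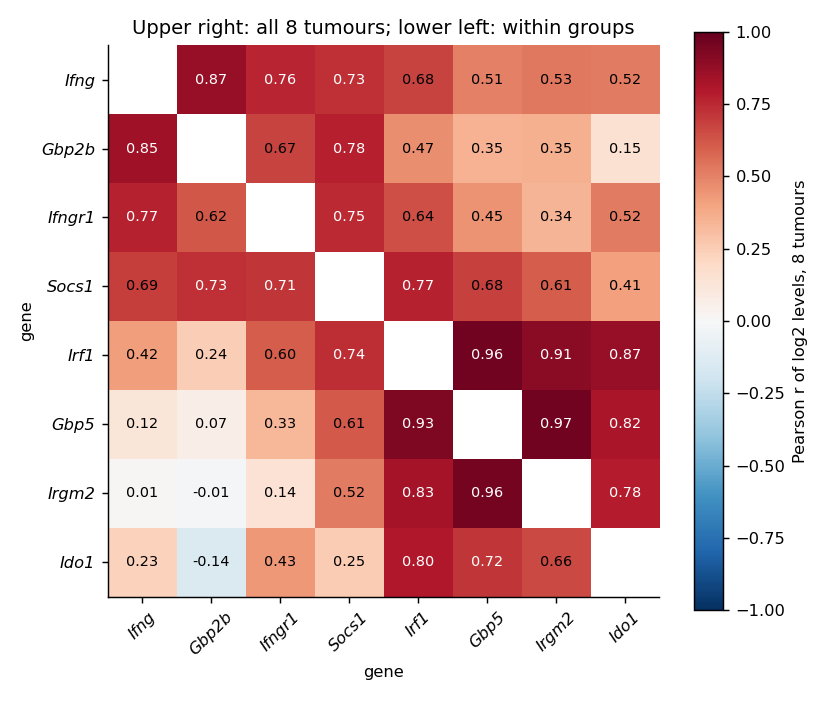
Pearson's r between log2 levels of each pair of the 8 genes, over all 8 tumours (upper right) and within groups (lower left), on a colour scale from -1 to 1. On the authors' scaling Irf1, Gbp5, Irgm2 and Ido1 form a block of 0.78 to 0.97 over all tumours, and Ifng pairs most closely with Gbp2b at 0.87. Socs1 with Irf1 (0.77) and with Gbp2b (0.78) lies near the lower edge of that block.

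The panel genes whose pattern was most like that of Ifng over all 8 tumours were Il2rb, a chain of the interleukin-2 and interleukin-15 receptors (r = 0.94), Irf8, a transcription factor of myeloid cells (0.93), Cd3d, a chain of the T cell receptor complex (0.93), Cd27, a costimulatory receptor of T cells (0.92), and Ccr8, a chemokine receptor (0.92). Each had an exact permutation adjusted p of 0.150 for r, and rho ran from 0.83 to 0.95 (adjusted p from 0.197 to 0.308). Without the 2 farthest tumours r was 0.79 to 0.92 for these 5 genes. Within groups the 5 closest were Map2k2 (0.97), a kinase of the MAPK pathway, Cd27 (0.95), the MHC class II genes H2-Eb1 (0.94) and H2-Dma (0.93), and Hras (0.94), a small GTPase. Each of these had an exact permutation adjusted p of 0.343 within groups. Over all 8 tumours H2-Eb1 and H2-Dma had an r of only 0.24 and 0.30, below the panel median, and without the 2 farthest tumours 0.14 and -0.03. The other 3 had 0.74 to 0.92 over all tumours and 0.54 to 0.87 without those 2.

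Markers of the cells that make interferon gamma had higher means as well. All 7 T cell markers had a higher mean after CXCL10, with a median difference of 0.29, and their summed linear level was 1542 to 2153 in vehicle and 2140 to 2508 in CXCL10 tumours. All 4 measured NK cell markers (of 5 listed) had a higher mean, with a median of 0.42 and summed levels of 1384 to 1847 and 1707 to 2469. None of these 11 genes passed the test, and none was at 0 in any tumour, as held for every measured gene. Their r with Ifng had medians of 0.78 for T cells and 0.79 for NK cells, against 0.38 for the panel. In whole tumours, more cells of a type and more RNA per cell cannot be told apart, and the part of these cells in the Ifng levels was not tested. Macrophage and monocyte markers had a higher mean in 1 of 4 and a median of -0.09, with summed levels of 6676 to 8011 and 6157 to 8814, and their median r with Ifng was 0.11. Dendritic cell markers, of interest for Ido1, had a higher mean in 3 of 4 and a median of 0.30. Their summed levels were 707.8 to 819.4 and 725.3 to 989.8, and their median r with Ifng was 0.52. Ptprc, a marker of all leucocytes, had a difference of 0.32 (limma adjusted p = 0.330) and an r of 0.48 with Ifng. A higher mean was thus not particular to T cell and NK cell markers. All 4 endothelial markers had a lower mean, with a median of -0.38 and summed levels of 1527 to 1846 and 1240 to 1731.

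Genes that act before Ifng, by inducing it or in the cells that make it, had a higher mean in 13 of 14, with a median of 0.22 that became 0.066 to 0.14 with the 3 other scalings. One of them passed, Il18r1, a chain of the interleukin-18 receptor, which was between 8.73 and 8.84 in vehicle and between 9.37 and 9.41 in CXCL10 tumours. It rose by 0.59 (SE 0.099, limma adjusted p = 0.0462), and missed the threshold under 14 of 16 alternative settings, among them every fit with 1 tumour left out (adjusted p from 0.0548 to 0.202). The filter on low counts, 1 of the 16, left the values of Il18r1 as in the main fit. Next came its partner chain Il18rap (0.53, SE 0.18, limma adjusted p = 0.182) and Il12rb1, a chain of the interleukin-12 receptor (0.43, SE 0.16, limma adjusted p = 0.198). Il18 itself stood at -0.19 (SE 0.14, limma adjusted p = 0.477). Of the 14, 7 had an unadjusted exact permutation p under 0.05 for a positive r with Ifng, against 16.6% of the panel, and none passed after adjustment. Within groups this held for 3 of the 14, against 9.68%.

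Of the wider pathway, 31 listed genes were on the panel, and 27 of them had a higher mean after CXCL10, with a median of 0.19. None passed the limma test over all genes (adjusted p from 0.120 to 0.965), 7 had an unadjusted p under 0.05 on the higher side (15.0% of the panel did) and 0 on the lower side (4.04%). The groups did not overlap for 3 of the 31, Nlrc5, Cxcl11 and Psmb9, all higher, against 7.79% of the panel. The 31 had a median r with Ifng of 0.59, against 0.38 for the panel. Of them, 10 had an unadjusted exact permutation p under 0.05 for a positive r, against 16.6% of the panel, and none passed after adjustment. Those 10 include 7 of the 11 antigen presentation genes, and also Irf8, named above among the 5 closest to Ifng. Within groups this p was under 0.05 for 3 of the 31, against 9.68%. In receptor signalling 4 of 5 had a higher mean, with a median of 0.14. Jak2 stood at 0.34 (SE 0.23), Stat2 at 0.17 (SE 0.11), Jak1 at 0.14 (SE 0.12) and the feedback inhibitor Socs3 at -0.07 (SE 0.12), with limma adjusted p from 0.422 to 0.761. All 5 transcription factors had a higher mean, with a median of 0.20. Nlrc5, which switches on MHC class I genes, had a difference of 0.68 (SE 0.16, limma adjusted p = 0.120), with 10.14 to 10.69 in vehicle and 10.87 to 11.41 in CXCL10 tumours. Irf7 stood at 0.28 (SE 0.17) and Irf8 at 0.20 (SE 0.14).

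Among the CXCR3 ligand genes the differences were 0.91 for Cxcl9 and 0.85 for Cxcl11, the highest of the 31, and 0.61 for Cxcl10, with limma adjusted p from 0.167 to 0.217. These are transcripts, whereas the injected agent was protein. In antigen presentation 8 of 11 had a higher mean, with a median of 0.17. The immunoproteasome genes Psmb9, Psmb8 and Psmb10 stood at 0.44, 0.30 and 0.23, and the class II genes Cd74, H2-Ab1 and H2-Aa at -0.27, -0.17 and -0.015 (limma adjusted p from 0.185 to 0.965). Among the other effectors 7 of 7 had a higher mean, with a median of 0.19. Casp1, the inflammasome caspase, stood at 0.60 (SE 0.22, limma adjusted p = 0.195), Cd274, which encodes PD-L1, at 0.43 (SE 0.23, limma adjusted p = 0.338) and the death receptor gene Fas at 0.28 (SE 0.14, limma adjusted p = 0.316). Without CXCL10 tumour 4 the differences became 0.38 for Cxcl10, 0.22 for Cd274, 0.18 for Fas, 0.17 for Irf7 and 0.15 for Psmb10. Without CXCL10 tumour 2 they became 0.21 for Jak2 and 0.059 for Jak1. Jak2 was 0.20 without vehicle tumour 4, and Irf7 was 0.15 without vehicle tumour 3.

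**Figure D5:**
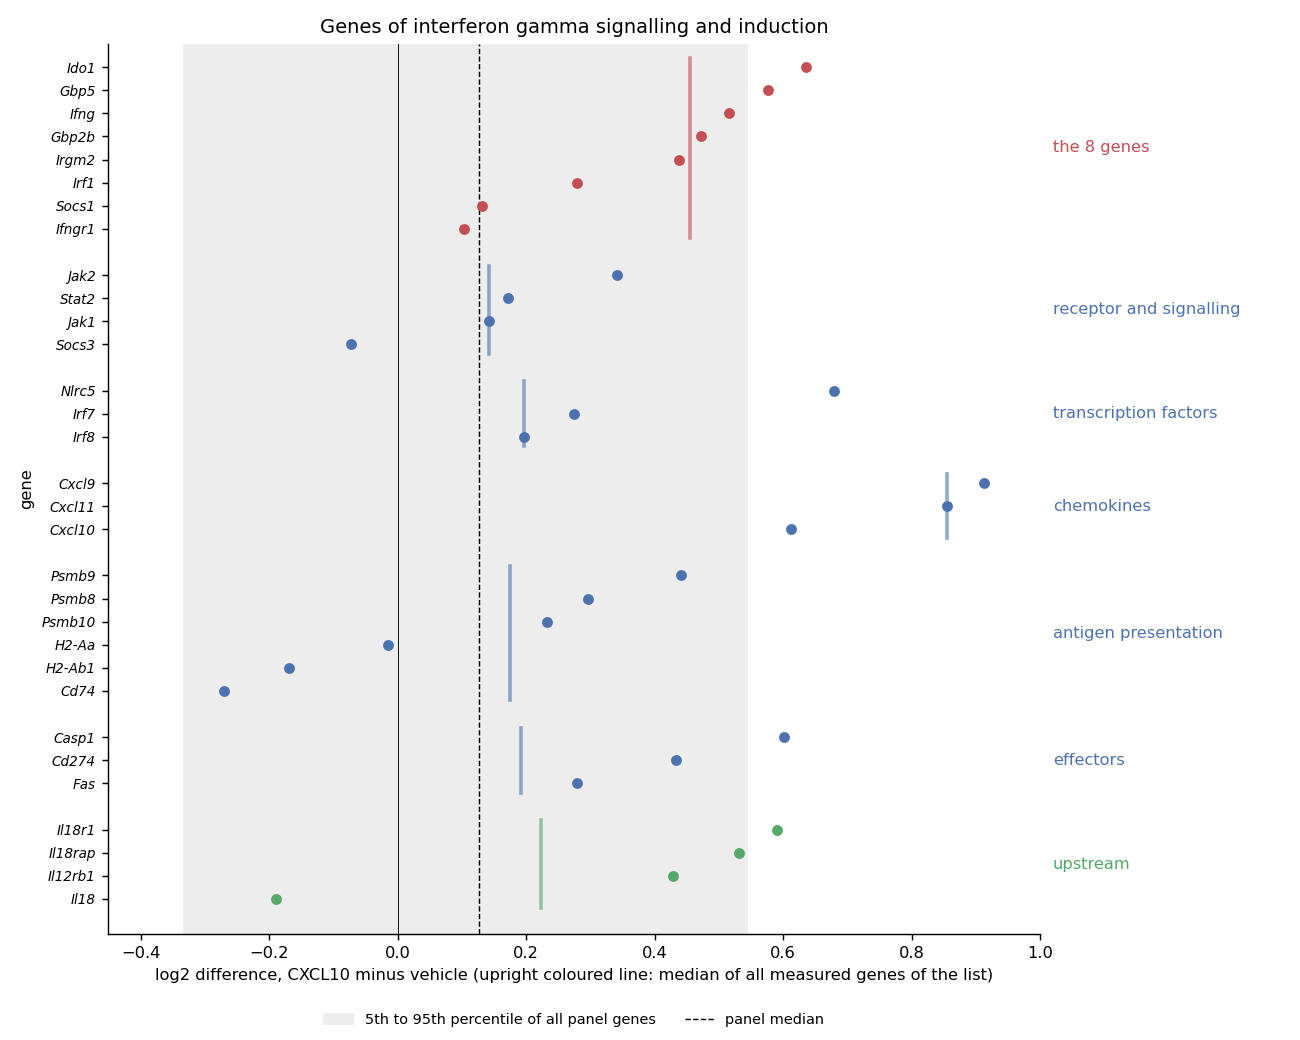
Log2 differences (CXCL10 minus vehicle, horizontal) of the 8 genes (red), the pathway genes named in the text (blue) and the named genes upstream of Ifng (green), 1 row a gene, with medians over all measured genes of each list as upright lines and the span from the 5th to the 95th percentile of the panel (-0.33 to 0.54) in grey. Ido1, Gbp5, Nlrc5, Casp1, Il18r1 and the 3 chemokine genes lie to the right of that span.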

How the data were processed

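Per the labels' protocols, RNA of whole tumours was extracted with TRIzol and columns with DNase treatment. The deposited values are log2 normalized counts of probes for 693 genes in 8 tumours. Per the file headers, 55 of 748 endogenous probes were pruned and 6 housekeeping genes were used in normalization; the instrument and software are not named. Beside these values the authors deposited each probe's variation coefficient, in percent, and its Entrez identifier. Another 16 columns carry lane names that match no sample and were not used. Out of log2, all values were whole multiples of 1 step per tumour (tolerance 0.02 counts), and these counts returned that deposited coefficient to within 0.02 percentage points for 693 genes. Probe background was not assessed.

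Groups came from the titles. All genes were fitted with limma 3.58.1 (lmFit, eBayes, no trend) in R 4.3.3, with group alone in the model, a Benjamini-Hochberg adjustment across the 693 genes and a threshold of 0.05. The design assumed this log2 unit. Correlations used exact two-sided permutation in numpy 2.4.6 and scipy 1.17.1. Alternatives were 3 other scalings, a pseudocount, a filter on low counts, a mean-variance trend, voom on recovered counts, the replicate block and 1 tumour left out. Scripts were tested on simulated data. The members, lists and tests were chosen with earlier results of these data known. Named were the 8 members, genes called over the panel, the 3 of smallest p on each side of each list, and the 5 closest to Ifng by r, over all tumours and within groups. Same-numbered tumours of the groups did not deviate together (r from -0.32 to 0.25), so the numbers were not used as pairs. No tumours were alike beyond replicates (r between tumours 0.967 to 0.991).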

Additional observations from a re-analysis of the deposited data

Results flagged for a closer look

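Within each group, the highest and the lowest tumour were set against the remaining 3 with Dixon's ratio of gap to range at its 95% critical value. Of 62 groups of 4 values checked (31 genes with values in the text), 4 met this, where chance gives about 1 in 20. None was one of the 8 genes. On the log2 scale, Stat2 was low in CXCL10 tumour 1 (10.97), the remaining CXCL10 tumours being at 11.07 to 11.08. CXCL10 tumour 4 was high for Irf7, at 10.71 against 10.25 to 10.30. CXCL10 tumour 2 was high for Cd74, at 15.97 against 15.51 to 15.59. Vehicle tumour 2 was high for Fas, at 9.07 against 8.80 to 8.83.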

How the results depend on the processing

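The count of panel genes called was 2, and became 0 with panel median centring, median-of-ratios scaling, a mean-variance trend, voom on recovered counts and the replicate block, 1 with quantile normalization, and 0 to 5 with 1 tumour left out (5 without vehicle tumour 2, 0 without any other). A pseudocount of 1 and the filter of 20 in 4 tumours left it at 2. That filter gave the same values as the main fit, so it was no separate check. Of the 8 genes, 0 were called under any of these settings, the lowest adjusted p being 0.130 (Irgm2, without vehicle tumour 2). Under the replicate block the lowest was 0.233, and the block changed no call among them. Directions of the 8 held throughout except for Ifngr1 (-0.0018 with median-of-ratios scaling, -0.042 with quantile normalization). H2-Aa ran from -0.13 to 0.071 with 1 tumour left out, turning to 0.038 without vehicle tumour 4 and 0.071 without CXCL10 tumour 1. The cause was not tested. The median of the 8 was 0.32 to 0.38 and that of the 31 pathway genes 0.081 to 0.11 with the 3 other scalings. No correlation of a member gene with Ifng passed under any setting. Within groups or with tumours left out, the orders were too few for a single gene to pass the adjustment. Those settings therefore could not show whether the count of 0 is stable. Counting error limits Ifng, Gbp2b and Ido1 most.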

Other observations

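The panel genes closest to Gbp5, a neighbour list chosen after its values were seen, differed from those closest to Ifng. Over the 8 tumours the highest r with Gbp5 were those of Cxcl9, an interferon-induced chemokine (r = 0.99, rho = 0.98, 0.97 within groups), Irgm2 (0.97), Herc6, an interferon-induced ligase gene (0.96, rho = 0.98, 0.94 within groups), Irf1 (0.96) and Ifit1, an interferon-induced antiviral gene (0.95, rho = 0.95, 0.92 within groups). The exact permutation p for r ran from 7.44e-05 to 0.000471 in these 5 genes, each with an adjusted p of 0.0948 over 5508 pairs, so none passed. Close behind came Anxa1, Ifit2 and Tnfsf18, each with r = 0.94, and the cut at 5 genes marks no gap. Their exact permutation adjusted p was 0.0948, 0.0948 and 0.0978. The T cell markers had a median r of 0.51 with Gbp5 (0.18 within groups) and of 0.78 with Ifng (0.77 within groups). Over the panel the medians were 0.34 with Gbp5 (0.19 within groups) and 0.38 with Ifng (0.34 within groups). For the carcinoma markers they were 0.66 with Gbp5 (0.57 within groups) and 0.21 with Ifng (-0.034 within groups). The 3 CXCR3 ligand genes had a median r of 0.94 with Gbp5 (0.89 within groups) and of 0.66 with Ifng (0.39 within groups). Whether these values differ was not tested, and all points share the same 8 tumours and scaling factors.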
